A study of Mus musculus with 15 samples.

Results

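Transcripts of 10 regulators and effectors of the integrated stress response were followed in mouse mammary tumour spheres treated with PHA, with ICG or with both. The members were taken as the probe sets annotated to Atf4, Atf3, Ddit3, Trib3, Ppp1r15a, Chac1, Sesn2, Niban1, Stc2 and Eif4ebp1. They make up 10 of the 18193 genes tested and 20 of the 45101 probe sets on the array. Cells from primary mammary gland tumours of FVB/N mice with the genotype WAPCre-DNbcatn;HGF were grown as floating spheres for 7 days and then treated for 24 h. All 5 groups share this strain, genotype and culture. The first set, with the code JAH in the titles, holds 3 arrays each of DMSO (the vehicle), PHA and ICG, and the second set, with the code JHO, holds 3 arrays each of DMSO and PHA+ICG. The series describes the compounds as inhibitors of the Wnt and MET pathways. By general knowledge PHA is a short name of MET kinase inhibitors and ICG of inhibitors of β-catenin-driven transcription. No dose is given in the labels. The Wap promoter named in the genotype is active in secretory cells of the mammary gland. The labels do not say how many tumours or animals the spheres came from, whether tumours were pooled, or whether the 3 arrays of a group are separate cultures, so every p-value measures the spread between these arrays only.

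In the integrated stress response, several kinases that sense amino acid shortage, misfolded protein in the endoplasmic reticulum, haem shortage or viral RNA phosphorylate the translation factor eIF2. General translation then falls, while translation of the ATF4 mRNA rises, and ATF4 protein switches on genes for further transcription factors, amino acid supply and recovery of translation. Most of the members are known targets of ATF4, and mRNA arrays measure neither eIF2 phosphorylation nor ATF4 protein.

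Promoter windows of 300 bases, from 250 before to 50 after the gene's start, were found for 9 of the 10 members in RefSeq on GRCm38.p6; Eif4ebp1 had no entry. They were searched on both strands for TGATGNAA, 1 form of the C/EBP-ATF response element through which ATF4 binds with C/EBP partners, for the cAMP response element TGACGTCA, and for the endoplasmic reticulum stress element CCAAT followed after 9 bases by CCACG. The first was found in 3 of the 9 windows, against 3.97% of all 32851 windows searched, the second in 1, against 1.79%, and the last in 0, against 0.119%. Over the 18109 windows of genes tested here, the shares were 2.73%, 2.49% and 0.110%. The 4 windows with a match are printed 5′ to 3′ on the strand of the gene, with the match in capitals, because they show where these letters lie in the members whose values follow. The C/EBP-ATF letters stand in reverse complement in each of the 3 windows. Chac1 is on the plus strand at chr2:119350992-119351291, Trib3 on the minus strand at chr2:152344011-152344310, Atf3 on the minus strand at chr1:191183284-191183583 and Ppp1r15a on the minus strand at chr7:45526219-45526518.
Chac1: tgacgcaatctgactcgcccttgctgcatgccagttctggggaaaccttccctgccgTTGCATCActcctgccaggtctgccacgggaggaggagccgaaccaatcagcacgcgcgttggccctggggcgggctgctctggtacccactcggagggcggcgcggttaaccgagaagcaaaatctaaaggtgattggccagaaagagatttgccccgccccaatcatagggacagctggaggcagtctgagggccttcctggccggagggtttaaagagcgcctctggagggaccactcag
Trib3: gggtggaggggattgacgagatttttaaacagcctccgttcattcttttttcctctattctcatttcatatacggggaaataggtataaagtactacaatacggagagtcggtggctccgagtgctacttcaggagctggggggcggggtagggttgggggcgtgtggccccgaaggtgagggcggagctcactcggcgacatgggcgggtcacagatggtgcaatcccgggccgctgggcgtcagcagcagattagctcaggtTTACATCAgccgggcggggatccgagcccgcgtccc
Atf3: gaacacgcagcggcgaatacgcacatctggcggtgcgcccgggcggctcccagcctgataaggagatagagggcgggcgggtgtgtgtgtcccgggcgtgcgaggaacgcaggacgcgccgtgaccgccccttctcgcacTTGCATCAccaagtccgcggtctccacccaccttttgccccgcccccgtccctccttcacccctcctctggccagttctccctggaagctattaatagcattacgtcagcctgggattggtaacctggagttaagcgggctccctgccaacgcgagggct
Ppp1r15a: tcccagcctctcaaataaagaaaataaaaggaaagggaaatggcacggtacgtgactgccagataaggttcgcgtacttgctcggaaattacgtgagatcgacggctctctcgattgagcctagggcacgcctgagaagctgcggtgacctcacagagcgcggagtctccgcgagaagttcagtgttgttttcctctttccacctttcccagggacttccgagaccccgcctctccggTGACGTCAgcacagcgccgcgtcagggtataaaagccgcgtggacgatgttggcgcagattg
Counted from the start of the gene, the match began at base -193 in Chac1, -110 in Atf3, 15 in Trib3 and -12 in Ppp1r15a. A match describes letters only, and binding was not measured.

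ICG raised all 10 regulators, PHA raised none and lowered 2, and PHA+ICG raised 2. A gene counted as called where limma's p, adjusted by Benjamini and Hochberg's method over all 18193 genes, was under 0.05, and values are log2 signals or differences of them. With ICG, the 10 of 10 called higher stood against 11.9% of all genes called higher and 26.9% called in either direction. The members were chosen with earlier results of these data known, so such contrasts with all genes are a description, not a test. All 3 ICG arrays lay above all 3 DMSO arrays for 10 of 10, as for 20.2% of all genes. The median difference of the members was 0.90, against 0.03 over all genes. With PHA, 0 of 10 were called higher and 2 lower (Chac1 and Stc2). Of all genes, 3.14% were called higher, 7.07% lower and 10.2% in either direction. Before adjustment, limma's p was also under 0.05 for Ppp1r15a, at a lower signal, and for Niban1, at a higher one. With PHA+ICG, 2 of 10 were called higher (Trib3 and Sesn2), against 0.478% of all genes called higher and 2.02% in either direction. The PHA+ICG arrays lay above all DMSO arrays for 8 of 10, as for 7.33% of all genes, and the median of the members was 1.01, against 0.00 over all genes. PHA and ICG were compared with the same 3 DMSO arrays, so their differences are not independent of each other.

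The second set was the less precise one: the median standard deviation within groups was 0.107 in the first set and 0.236 in the second. In the second set, arrays of DMSO and PHA+ICG with the same number deviated together, with correlations of 0.61, 0.36 and 0.28 over all genes for numbers 1, 2 and 3. Numbers 2 and 3 were not set apart from each other: DMSO replicate 3 correlated with PHA+ICG replicate 2 at 0.35, and DMSO replicate 2 with PHA+ICG replicate 3 at 0.24, whereas number 1 correlated with numbers 2 and 3 at -0.51 to -0.31. The deviations within a group cancel out for each gene. The negative values therefore follow in part from the centring and are no separate evidence of pairing. With the number as a block, 6 of the 10 members were called higher with PHA+ICG in place of 2, and 1442 genes in place of 368.

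**Figure D1:**
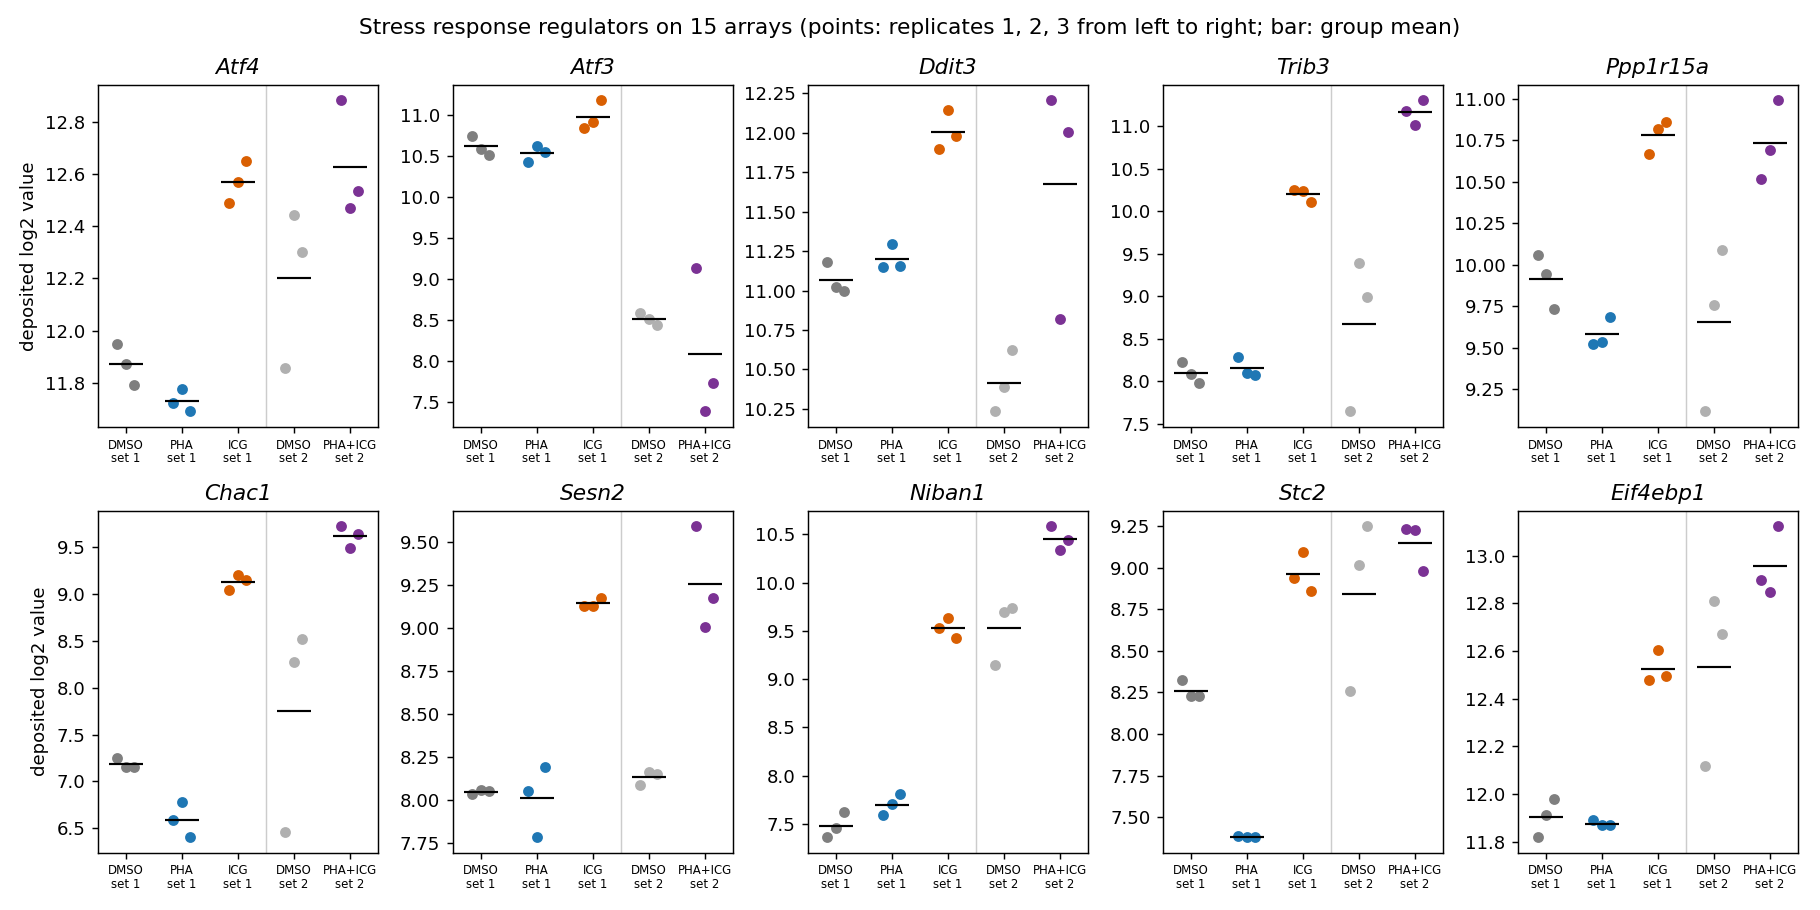
Deposited log2 values of the 10 regulators on each of the 15 arrays (points, replicates 1 to 3 from left to right) with the group mean as a bar; the grey line separates the first set from the second, and each panel has its own log2 axis, which does not start at 0. All 3 ICG arrays lie above all 3 DMSO arrays of their set in every panel, and DMSO replicate 1 of the second set is the lowest of its group for 9 genes, Atf3 being the other one.

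Atf4 encodes the transcription factor at the centre of the response. Its probe set read 11.95, 11.87 and 11.79 in DMSO, 11.72, 11.78 and 11.69 in PHA, and 12.49, 12.57 and 12.65 in ICG. The ICG arrays lay above all others of the first set, and the PHA arrays lay just below all 3 DMSO arrays. ICG raised Atf4 by 0.70 ± 0.07 (SE, n = 3 a group; limma adjusted p = 7.55e-05), and the difference with PHA was -0.14 ± 0.07 (limma adjusted p = 0.230). The second set gave 11.86, 12.44 and 12.30 in DMSO and 12.88, 12.47 and 12.53 in PHA+ICG. The groups did not overlap, by a margin smaller than the spread within DMSO, and the difference of 0.43 ± 0.21 was not called (limma adjusted p = 0.444). A further probe set of Atf4 was also higher with ICG (0.81 ± 0.18; limma adjusted p = 0.00973), while the dimmest, at 4.19 to 4.90 over the 15 arrays, gave 0.24 ± 0.15 (limma adjusted p = 0.304).

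Ddit3 encodes CHOP, a transcription factor induced downstream of ATF4 and known for its part in stress-induced cell death. It read 11.18, 11.02 and 10.997 in DMSO, 11.15, 11.30 and 11.16 in PHA and 11.90, 12.14 and 11.98 in ICG. DMSO and PHA overlapped, with a difference of 0.13 ± 0.08 (limma adjusted p = 0.354), and ICG lay above both. The rise with ICG was 0.94 ± 0.08 (limma adjusted p = 4.67e-05). Ddit3 in the second set read 10.23, 10.39 and 10.62 in DMSO and 12.20, 10.82 and 12.01 in PHA+ICG. Replicate 2 of PHA+ICG stood close to DMSO while the other two stood far above it. The difference of 1.26 ± 0.34 was not called (limma adjusted p = 0.124); it was called with the replicate block (limma adjusted p = 0.0123) and, at 1.69, without PHA+ICG replicate 2 (limma adjusted p = 0.0220). The other Ddit3 probe set went a different way: it read 6.88, 6.99 and 6.74 in DMSO and 6.74, 7.12 and 6.57 in ICG, a difference of -0.06 ± 0.19 (limma adjusted p = 0.870). The Ddit3 result therefore rests on 1 of its 2 probe sets.

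Atf3 encodes a transcription factor of the same family that is induced by many kinds of stress. It read 10.75, 10.59 and 10.52 in DMSO, 10.43, 10.63 and 10.55 in PHA, and 10.84, 10.91 and 11.18 in ICG. The ICG arrays began just above the highest DMSO array. The rise of 0.36 ± 0.10 with ICG was the smallest among the members (limma adjusted p = 0.0241). It was not called without DMSO replicate 2 (0.34; limma adjusted p = 0.0704), without DMSO replicate 3 (0.31; limma adjusted p = 0.0851) or without ICG replicate 3 (0.26; limma adjusted p = 0.0767), nor in the fits to all 15 arrays (limma adjusted p = 0.0763 with set weights and 0.623 without). PHA gave -0.08 ± 0.10 (limma adjusted p = 0.662). Atf3 in the second set read 8.59, 8.51 and 8.44 in DMSO and 9.13, 7.39 and 7.73 in PHA+ICG. The PHA+ICG arrays lay on both sides of DMSO, and the difference was -0.43 ± 0.40 (limma adjusted p = 0.794). Without PHA+ICG replicate 1 it was -0.95 and called lower (limma adjusted p = 0.0473).

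The feedback regulators come next. Trib3 encodes a pseudokinase that is induced by ATF4 and CHOP and is known to restrain them. It read 8.22, 8.08 and 7.98 in DMSO, 8.28, 8.09 and 8.08 in PHA, and 10.25, 10.24 and 10.10 in ICG. PHA overlapped DMSO (0.06 ± 0.08; limma adjusted p = 0.723), and ICG stood apart from both. ICG raised Trib3 by 2.10 ± 0.08, or 4.30-fold (limma adjusted p = 9.26e-07), which ranked 6 among all 18193 genes ordered from the largest rise. Trib3 in the second set read 7.64, 9.39 and 8.99 in DMSO and 11.18, 11.01 and 11.30 in PHA+ICG. DMSO replicate 1 was low, and all PHA+ICG arrays were above all DMSO arrays. The rise was 2.49 ± 0.40, or 5.63-fold (limma adjusted p = 0.0225; 0.000693 with the replicate block). The call was lost without DMSO replicate 3 (2.65; limma adjusted p = 0.0730), PHA+ICG replicate 2 (2.57; limma adjusted p = 0.0742) or PHA+ICG replicate 3 (2.42; limma adjusted p = 0.104). The other Trib3 probe set rose by 2.06 ± 0.10 with ICG (limma adjusted p = 1.76e-06) and by 2.35 ± 0.33 with PHA+ICG (limma adjusted p = 0.0161).

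Ppp1r15a encodes GADD34, which directs a phosphatase to eIF2 and so ends the translational block. It read 10.06, 9.95 and 9.73 in DMSO, 9.52, 9.54 and 9.68 in PHA and 10.67, 10.82 and 10.86 in ICG. The 3 groups did not overlap, with PHA lowest and ICG highest. ICG raised it by 0.87 ± 0.09 (limma adjusted p = 0.000128). The difference of -0.33 ± 0.09 with PHA fell just outside the call (limma adjusted p = 0.0505), and without DMSO replicate 3 it was called at -0.42 (limma adjusted p = 0.0247). Second-set values were 9.12, 9.75 and 10.09 in DMSO and 10.52, 10.69 and 10.99 in PHA+ICG. The groups did not overlap, and the difference of 1.08 ± 0.26 was not called (limma adjusted p = 0.0884) but was with the replicate block (limma adjusted p = 0.00352). Ppp1r15b, the constitutive counterpart of GADD34, rose by 0.34 ± 0.06 with ICG (limma adjusted p = 0.00239).

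Chac1, an enzyme that degrades glutathione and a known target of ATF4, was among the members that moved in opposite directions under the single compounds. It read 7.25, 7.15 and 7.16 in DMSO, 6.59, 6.78 and 6.40 in PHA and 9.04, 9.20 and 9.16 in ICG. All 3 groups were separate. PHA lowered Chac1, which fell by 0.59 ± 0.09 (limma adjusted p = 0.00342; 0.752 in the unweighted fit to all 15 arrays), and ICG raised it by 1.95 ± 0.09, or 3.86-fold (limma adjusted p = 1.44e-06), rank 9 of all genes. The second set gave 6.46, 8.28 and 8.53 in DMSO and 9.73, 9.50 and 9.65 in PHA+ICG. DMSO replicate 1 lay far below the other DMSO arrays, while the PHA+ICG arrays were close together above all of them. The difference of 1.87 ± 0.48 was not called (limma adjusted p = 0.106); it was called with the replicate block (limma adjusted p = 0.00855) and, at 1.22, without DMSO replicate 1 (limma adjusted p = 0.0212).

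Stc2 encodes stanniocalcin 2, a secreted glycoprotein. It read 8.33, 8.23 and 8.23 in DMSO, 7.38 on each of the 3 PHA arrays and 8.94, 9.09 and 8.86 in ICG. The 3 groups were separate, and the largest fall of a member with PHA was here. Stc2 fell by 0.88 ± 0.07 with PHA, a 1.84-fold lower signal (limma adjusted p = 9.44e-05), and rose by 0.70 ± 0.07 with ICG (limma adjusted p = 8.80e-05). Stc2 in the second set read 8.26, 9.01 and 9.25 in DMSO and 9.23, 9.22 and 8.98 in PHA+ICG. These groups overlapped, and the difference was 0.31 ± 0.26 (limma adjusted p = 0.758; 95% interval -0.28 to 0.90). Of the other 2 Stc2 probe sets, one fell by 0.65 ± 0.09 with PHA (limma adjusted p = 0.00206) and the other gave -0.24 ± 0.11 (limma adjusted p = 0.237). Both were higher with ICG, by 0.28 ± 0.09 and 0.47 ± 0.11 (limma adjusted p = 0.0452 and 0.0119). Its paralogue Stc1 fell by 0.65 ± 0.10 with PHA (limma adjusted p = 0.00389) and stood at 0.03 with ICG (limma adjusted p = 0.881).

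Sesn2 encodes sestrin 2, which senses leucine and restrains mTORC1. It read 8.03, 8.06 and 8.05 in DMSO, 8.05, 7.79 and 8.19 in PHA and 9.13, 9.13 and 9.18 in ICG. PHA lay around DMSO (-0.04 ± 0.09; limma adjusted p = 0.839), and ICG raised Sesn2 by 1.10 ± 0.09 (limma adjusted p = 3.68e-05). Second-set values were 8.09, 8.16 and 8.15 in DMSO and 9.59, 9.01 and 9.17 in PHA+ICG. Its DMSO arrays were the closest together of any member there, and DMSO replicate 1 did not stand apart. The rise of 1.12 ± 0.19 was called (limma adjusted p = 0.0252; 0.00357 with the replicate block). It was not called without any 1 of the DMSO arrays (1.10, 1.14 and 1.13 for replicates 1, 2 and 3; limma adjusted p = 0.0573, 0.115 and 0.120) or without PHA+ICG replicate 3 (1.17; limma adjusted p = 0.101). The relatives differed: Sesn1 was at -0.14 with ICG (limma adjusted p = 0.107), and Sesn3 fell by 0.66 ± 0.06 with ICG (limma adjusted p = 7.74e-05) and rose by 0.68 ± 0.06 with PHA (limma adjusted p = 0.000227).

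Eif4ebp1 encodes 4E-BP1, a repressor of cap-dependent translation that mTORC1 inactivates. It read 11.82, 11.91 and 11.98 in DMSO, 11.89, 11.87 and 11.87 in PHA and 12.48, 12.60 and 12.50 in ICG. PHA lay within DMSO (-0.03 ± 0.06; limma adjusted p = 0.822). ICG raised Eif4ebp1 by 0.62 ± 0.06 (limma adjusted p = 0.000104), and its other 2 probe sets were raised by 0.65 and 0.75. The second set gave 12.12, 12.81 and 12.67 in DMSO and 12.90, 12.85 and 13.12 in PHA+ICG. The groups did not overlap, the gap being narrow, and the difference of 0.42 ± 0.21 was not called (limma adjusted p = 0.471). Eif4ebp2 was at -0.05 with ICG (limma adjusted p = 0.525).

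Niban1, a stress-induced cytoplasmic protein linked to translational control, read 7.36, 7.45 and 7.62 in DMSO, 7.59, 7.70 and 7.81 in PHA and 9.53, 9.63 and 9.42 in ICG. PHA overlapped DMSO at slightly higher values (0.22 ± 0.09; limma adjusted p = 0.155). ICG raised Niban1 by 2.05 ± 0.09, or 4.14-fold (limma adjusted p = 9.59e-07), rank 7 of all genes. In the second set it read 9.14, 9.69 and 9.74 in DMSO and 10.59, 10.34 and 10.44 in PHA+ICG. The second-set DMSO arrays thus already lay at the values of the first-set ICG arrays. The difference of 0.93 ± 0.20 with PHA+ICG was not called (limma adjusted p = 0.0606) but was with the replicate block (limma adjusted p = 0.0143) and after quantile normalization (1.04; limma adjusted p = 0.0437). Its second probe set rose by 2.44 ± 0.10 with ICG (limma adjusted p = 1.02e-06). The paralogue Niban2 was at -0.02 with ICG (limma adjusted p = 0.833), and Niban3 rose by 0.24 ± 0.07 (limma adjusted p = 0.0359).

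**Figure D2:**
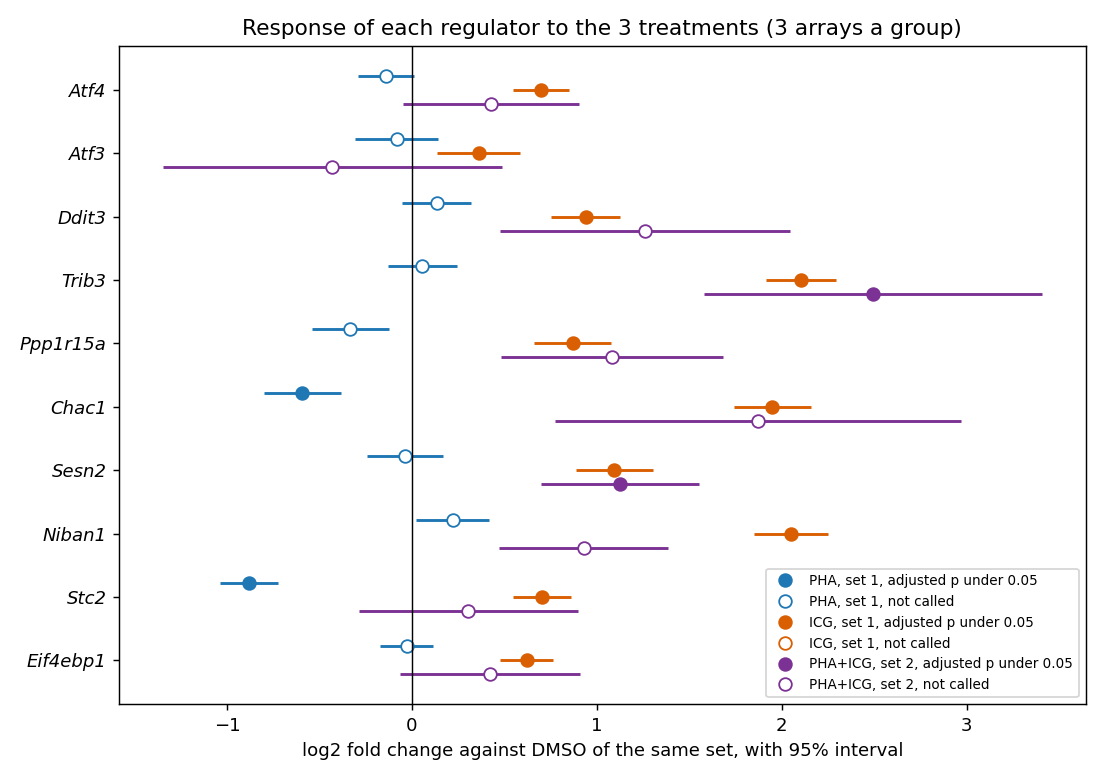
Log2 fold change of each regulator against the DMSO arrays of its own set, with 95% intervals from limma (3 arrays a group); filled points have an adjusted p under 0.05. All 10 ICG points are filled and lie between 0.36 and 2.10, while the PHA+ICG intervals are wider and only Trib3 and Sesn2 are filled.

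ICG was also set against PHA within the first set. All 10 members were higher with ICG, where 13.4% of all genes were called higher and 27.1% in either direction. The difference was largest for Chac1, at 2.54 ± 0.09 (limma adjusted p = 3.17e-07), followed by Trib3 at 2.05 ± 0.08, Niban1 at 1.83 ± 0.09 and Stc2 at 1.58 ± 0.07. It was smallest for Atf3, at 0.44 ± 0.10 (limma adjusted p = 0.00838). Chac1 and Stc2 stood further apart here than in ICG against DMSO, since PHA had lowered both. With any 1 array left out all 10 members stayed called. In the unweighted fit to all 15 arrays Ddit3 and Atf3 were not called (limma adjusted p = 0.0713 and 0.524). Over all alternatives 5 member calls were lost. The groups overlapped in the other Ddit3 probe set, with means of 6.81 in ICG and 6.70 in PHA. They also overlapped in the dimmest Atf4 probe set, with means of 4.75 in ICG and 4.47 in PHA.

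The effect of the combination was compared with that of each compound over both sets, each measured against its own DMSO arrays. Doses are not given, so it is not known whether the compounds were used at the same dose alone and together. Against the effect of ICG alone, 0 of 10 members were called by limma, where 0.385% of all genes were called. Before adjustment, limma's p was under 0.05 for Niban1 only. For Trib3 the difference was 0.39 ± 0.35, with a 95% interval of -0.37 to 1.14, for Chac1 it was -0.08 ± 0.42 (-0.97 to 0.82), and for Sesn2 it was 0.03 ± 0.23 (-0.47 to 0.53). These intervals do not show that the effects were equal, and single arrays set the sign: without DMSO replicate 1 of the second set Trib3 was at -0.13, without DMSO replicate 2 or 3 of that set Chac1 was at 0.18 or 0.31, and without PHA+ICG replicate 1 Sesn2 was at -0.14. Niban1 had the largest difference, -1.12 ± 0.23 (-1.62 to -0.62; limma adjusted p = 0.0571). It was called with the replicate block (limma adjusted p = 0.0309), without DMSO replicate 3 of the first set (-1.19; limma adjusted p = 0.0367), without ICG replicate 3 (-1.17; limma adjusted p = 0.04996), without DMSO replicate 1 of the second set (-1.31; limma adjusted p = 0.0204) and without PHA+ICG replicate 1 (-1.18; limma adjusted p = 0.0497). Atf3 was at -0.79 ± 0.37 (limma adjusted p = 0.710), and without PHA+ICG replicate 1 at -1.31 (limma adjusted p = 0.0314).

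Against the effect of PHA alone, the combination was higher for 5 of 10 members, where 1.08% of all genes were called higher and 2.74% in either direction. These were Chac1 (2.46 ± 0.42; limma adjusted p = 0.00526), Trib3 (2.44 ± 0.35; limma adjusted p = 0.00189), Ppp1r15a (1.41 ± 0.28; limma adjusted p = 0.0115), Stc2 (1.19 ± 0.24; limma adjusted p = 0.0144) and Sesn2 (1.16 ± 0.23; limma adjusted p = 0.0134). Ddit3 was at 1.13 ± 0.32 (limma adjusted p = 0.0738) and was called with the replicate block (limma adjusted p = 0.0344) and without PHA+ICG replicate 2 (1.56; limma adjusted p = 0.00265). Ppp1r15a was not called without DMSO replicate 2 of the second set (1.46; limma adjusted p = 0.0514) or PHA+ICG replicate 3 (1.29; limma adjusted p = 0.0626), and Sesn2 not without DMSO replicate 2 (1.18; limma adjusted p = 0.0707) or 3 (1.17; limma adjusted p = 0.0800) of the second set. The Stc2 call held for 1 of its 3 probe sets, the others giving 0.28 and 0.43 (limma adjusted p = 0.820 and 0.613). Against its own DMSO arrays, the other probe sets of Stc2 stood at -0.37 ± 0.25 and 0.19 ± 0.22 with PHA+ICG (limma adjusted p = 0.693 and 0.875), so the probe sets differed in direction and none was called.

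Against the sum of both single effects, 1 of 10 members was called, where 0.72% of all genes were, and 0.242% were called lower. Niban1 was lower than the sum by 1.34 on the log2 scale (-1.34 ± 0.27; limma adjusted p = 0.0305). The call was lost without DMSO replicate 1 (-1.22; limma adjusted p = 0.0575) or 2 (-1.31; limma adjusted p = 0.0716) of the first set, PHA replicate 2 (-1.34; limma adjusted p = 0.0510), DMSO replicate 2 (-1.25; limma adjusted p = 0.148) or 3 (-1.23; limma adjusted p = 0.175) of the second set, or PHA+ICG replicate 2 (-1.28; limma adjusted p = 0.0617) or 3 (-1.33; limma adjusted p = 0.103). The other members lay between -0.71 (Atf3) and 0.54 (Ppp1r15a), none of them called.

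The DMSO arrays of the sets differed in several of the members, and the labels do not say in what else the sets differ. In the second set 3 of 10 members were called higher and 2 lower, where 11.8% of all genes were called higher and 11.8% lower, 23.5% in all. Niban1 was higher by 2.05 ± 0.17 (limma adjusted p = 3.08e-07), Eif4ebp1 by 0.63 ± 0.14 (limma adjusted p = 0.00412) and Stc2 by 0.58 ± 0.17 (limma adjusted p = 0.0210), its arrays overlapping. Eif4ebp1 was not called in its other probe sets (0.41 and 0.24), nor Stc2 in 1 of its own (0.31). Atf3 was lower, at -2.11 ± 0.26 (limma adjusted p = 2.52e-05), and so was Ddit3, at -0.65 ± 0.22 (limma adjusted p = 0.0448), whose other probe set was higher by 1.44 (limma adjusted p = 0.00252). Without DMSO replicate 1 of the second set Trib3 (1.09; limma adjusted p = 0.000513), Chac1 (1.22; limma adjusted p = 0.000294) and Atf4 (0.50; limma adjusted p = 0.0361) were called higher, and Ddit3 was not called (-0.56; limma adjusted p = 0.172). Without DMSO replicate 2 or 3 of the second set only Niban1 and Atf3 remained called; Stc2 was then at 0.49 and 0.38, Eif4ebp1 at 0.49 and 0.56, and Ddit3 at -0.64 and -0.76. Ddit3 was also not called without DMSO replicate 1 (-0.59) or 2 (-0.67) of the first set, nor, at -0.65, without PHA replicate 1 or 3, ICG replicate 3 or PHA+ICG replicate 3. The combination minus ICG difference uses the same DMSO arrays, so the Niban1 values of both comparisons are linked: 2.05 between the DMSO groups and -1.12 between the effects.

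DMSO replicate 1 of the second set stood apart for most members. The mean of the 10 members, each taken as the difference from its DMSO mean, was -0.47 on that array and 0.22 and 0.25 on the other DMSO arrays of the set. In the first set the DMSO arrays lay between -0.04 and 0.05, the PHA arrays between -0.18 and -0.16 and the ICG arrays between 1.08 and 1.19. The PHA+ICG arrays were at 1.17, 0.71 and 0.97. Leukocyte and epithelial markers also set number 1 of the second set apart. The mean of the leukocyte markers was 9.55 on DMSO replicate 1 against 7.82 and 7.71 on the other DMSO arrays, and 8.48 on PHA+ICG replicate 1 against 7.02 and 6.95. That of the epithelial markers was 9.07 on PHA+ICG replicate 1 against 7.75 and 7.79, and in DMSO it was 9.20 against 8.98 and 8.94. The fibroblast markers differed less, at 12.19 against 12.03 and 12.01 in DMSO and 11.52 against 11.38 and 11.35 in PHA+ICG. Mast cell and basophil markers were lower on number 1, at 7.89 against 8.48 and 8.52 in DMSO and 7.14 against 7.60 and 7.26 in PHA+ICG. When number 1 of both second-set groups was left out, a choice made after seeing the data, 5 members were called with PHA+ICG. Of all 18193 genes, 886 were then called, in place of 368. Trib3, Sesn2, Ppp1r15a (0.92, limma adjusted p = 0.0436) and Chac1 (1.17, limma adjusted p = 0.0110) were higher. Atf3 was lower (-0.92, limma adjusted p = 0.0364).

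**Figure D3:**
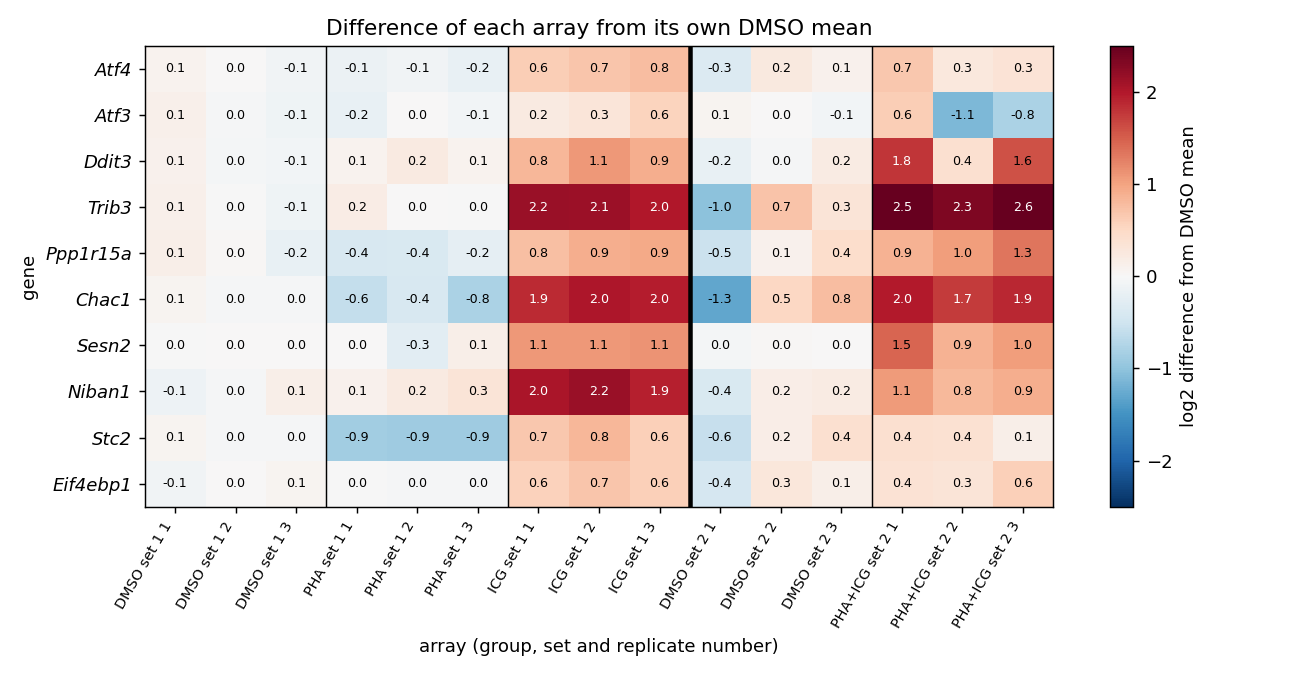
Log2 difference of each regulator on each array from the mean of the DMSO arrays of its set (colour and number); thin lines separate groups and the thick line the sets. ICG columns are positive in every row, DMSO replicate 1 of the second set is negative in most rows, and the Atf3 row has both signs among the PHA+ICG arrays.

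The members moved together over the 15 arrays except for Atf3. As differences from the DMSO mean of the set, 9 of the 10 correlated with the mean of the other 9 at r = 0.80 to 0.97, and Atf3 at 0.08; the 15 arrays share groups and treatments, so these values are a description. The genes outside the members whose pattern was most like the mean of the 10 were Acot2, Mthfd2, Steap1, Wars, 5430416N02Rik, Lonp1, Angptl6, Arhgef2, Slc7a1 and Rad9a, with r of 0.97 to 0.98 over 15 arrays. Acot2, a mitochondrial acyl-CoA thioesterase, rose by 1.81 ± 0.11 with ICG (limma adjusted p = 9.92e-06) and by 1.71 ± 0.27 with PHA+ICG (limma adjusted p = 0.0216). Angptl6, which encodes a secreted angiopoietin-like protein, rose by 1.74 ± 0.07 and by 1.80 ± 0.27 (limma adjusted p = 9.47e-07 and 0.0178).

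Other genes of the pathway were followed in lists that, like the members, were chosen with earlier results of these data known. Over all genes, 11.9% were called higher with ICG and 26.9% in either direction. With PHA 3.14% were called higher and 7.07% lower, and with PHA+ICG 0.478% higher and 2.02% in either direction. Of the amino acid synthesis and one-carbon genes, 12 of 13 measured rose with ICG and 0 fell, with a list median of 1.55. Cth, which makes cysteine, rose by 3.34 ± 0.14 (limma adjusted p = 9.47e-07), the serine enzymes Psat1 and Phgdh by 2.33 ± 0.07 and 1.90 ± 0.08, and asparagine synthetase Asns by 2.18 ± 0.08. With PHA 0 rose and 4 fell: Phgdh (-0.97 ± 0.08), Cth (-0.80 ± 0.14), Aldh18a1 (-0.70 ± 0.09) and Shmt2 (-0.39 ± 0.08). With PHA+ICG 2 rose, Cth by 2.04 ± 0.27 and the serine enzyme Psph by 0.95 ± 0.18, and the median was 0.89. The list mean was 8.14 in DMSO and 9.66 in ICG of the first set, and 9.49 in DMSO and 10.22 in PHA+ICG of the second. The second-set DMSO arrays thus already lay near the first-set ICG arrays. For combination minus ICG, Asns (-1.19), Psat1 (-1.27) and Phgdh (-1.73) were called lower (limma adjusted p = 0.0258, 0.0199 and 0.0149), and the rest of the list was not called.

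Of the amino acid transporters, 8 of 9 rose with ICG, led by Slc7a3 (2.94 ± 0.14), Slc7a5 (1.93 ± 0.08) and Slc7a1 (1.82 ± 0.08), and 0 fell. The shares over all genes were 11.9% called higher with ICG, 7.07% lower with PHA and 0.478% higher with PHA+ICG. The cystine carrier Slc7a11 was the one not called with ICG (0.31). It fell with PHA (-0.63 ± 0.12; limma adjusted p = 0.00797), as did Slc7a1 (-0.44 ± 0.08; limma adjusted p = 0.00729), and both rose with PHA+ICG, by 1.27 ± 0.18 and 1.16 ± 0.19. Of the tRNA synthetases, which charge tRNAs with amino acids, 10 of 11 rose with ICG, by 0.43 (Gars) to 1.10 (Aars). With PHA 2 fell (Aars and Gars, both by 0.27), and with PHA+ICG none was called, at a median of 0.71. The mean of the synthetase list was 9.54 in DMSO and 10.27 in ICG of the first set, and 10.16 in DMSO and 10.70 in PHA+ICG of the second. That of the transporter list was 8.45, 9.72, 8.94 and 10.03 in the same order.

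Of the other targets of ATF4 or CHOP, 11 of 15 rose with ICG and 0 fell, against 11.9% of all genes called higher. The largest rises were in the transcription factor Atf5 (1.40 ± 0.08), the autophagy receptor Sqstm1 (1.15 ± 0.08), Nupr1 (1.04 ± 0.08) and the tRNA exporter Xpot (0.90 ± 0.07). With PHA+ICG 3 rose, Sqstm1 by 1.37 ± 0.21, Nupr1 by 1.03 ± 0.18 and Xpot by 0.74 ± 0.15, and with PHA Jdp2 fell (-0.40 ± 0.07). Among the mitochondrial chaperones and proteases 4 of 7 rose with ICG, the protease Lonp1 most (0.71 ± 0.08), and none was called with PHA or PHA+ICG. The mean of the ATF4 or CHOP target list was 10.02 in DMSO and 10.53 in ICG of the first set, and 10.38 in DMSO and 10.86 in PHA+ICG of the second. That of the mitochondrial list was 10.48, 10.75, 10.75 and 10.99 in the same order.

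The branches of the unfolded protein response that run through IRE1 and ATF6 did not move as one with the members. Of 19 measured genes of these branches and their chaperones, 5 rose and 11 fell with ICG, with a median of -0.21. Of all genes 11.9% were called higher with ICG and 26.9% in either direction. The disulfide isomerase Pdia4 fell by 1.17 ± 0.10 (limma adjusted p = 3.89e-05) and Creld2 by 0.66 ± 0.06, while the sensor Ern1 rose by 0.73 ± 0.06 and Herpud1 by 0.66 ± 0.07. The chaperone Hspa5 was at -0.04 with ICG and was not called. With PHA+ICG 0 rose and 6 fell, among them Pdia4 (-1.51 ± 0.19) and Sdf2l1 (-1.30 ± 0.24), and with PHA 0 rose and 4 fell, led by Herpud1 (-0.43 ± 0.07).

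Of 18 genes for the eIF2 kinases, eIF2 itself and its exchange factor and regulators, 6 rose and 4 fell with ICG, with a median of -0.03. The haem-regulated kinase Eif2ak1 rose by 0.66 ± 0.08 and the endoplasmic reticulum kinase Eif2ak3 fell by 0.57 ± 0.09, while Eif2ak2 and Eif2ak4 were at -0.10 and -0.16 and not called. With PHA 1 rose (Impact, 0.35 ± 0.08), and with PHA+ICG none was called. Over all genes, the shares called higher were 11.9% with ICG and 3.14% with PHA. Those called in either direction were 26.9% with ICG, 10.2% with PHA and 2.02% with PHA+ICG. At the last share, a lack of calls with PHA+ICG in lists this short says little. Of 11 p53 targets 7 rose with ICG at a median of 0.33, 1 rose and 4 fell with PHA, and none was called with PHA+ICG. Of 19 paralogues and partners of the members, 9 rose and 2 fell with ICG, the latter being Trib2 (-0.87 ± 0.08) and Sesn3; with PHA 2 rose and 3 fell, and with PHA+ICG none was called.

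**Figure D4:**
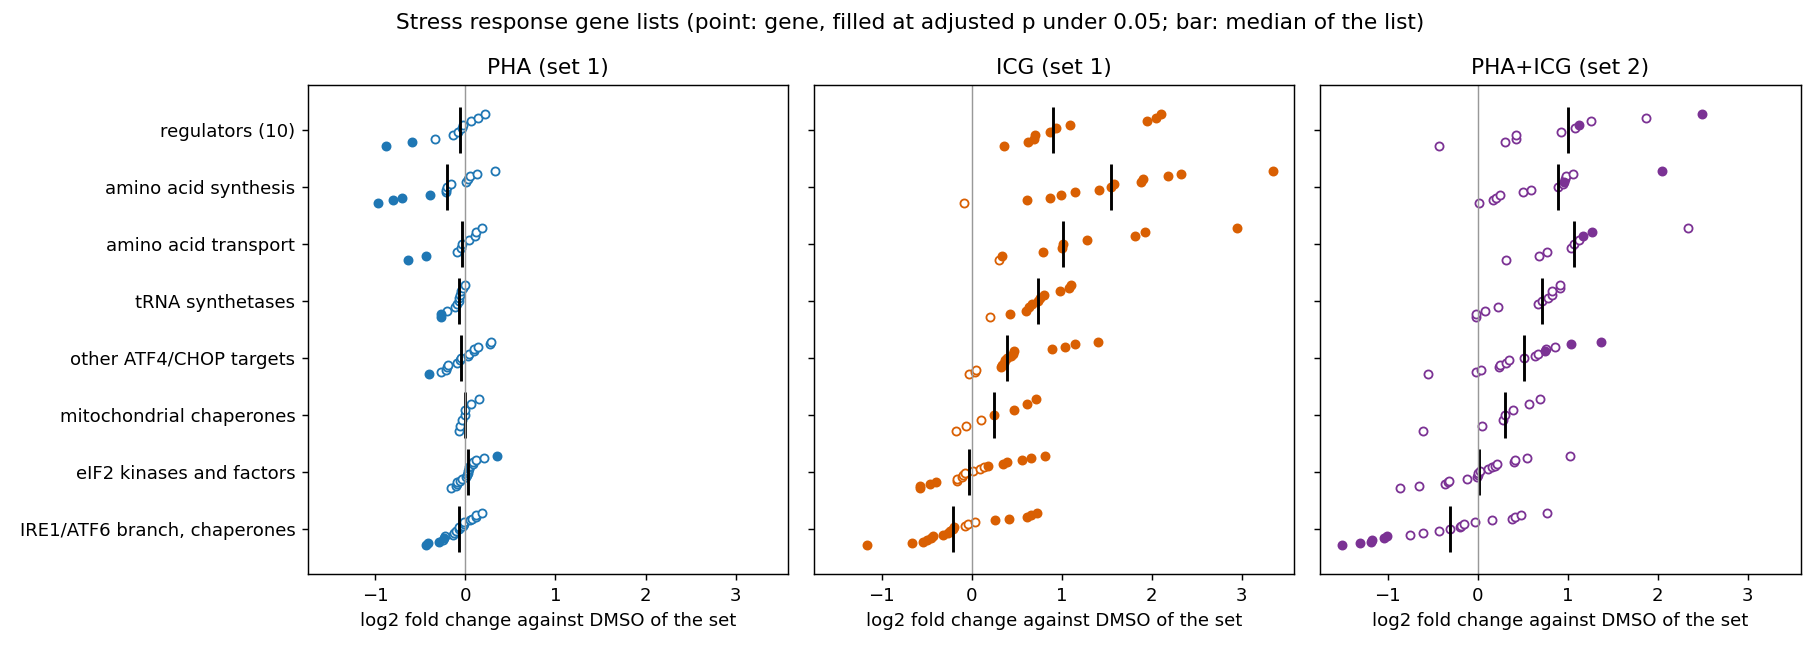
Log2 fold changes of the genes of each pathway list against the DMSO arrays of the set (points; filled at a limma adjusted p under 0.05) with the list median as a bar, for PHA, ICG and PHA+ICG. With ICG the medians of the amino acid synthesis and transport lists are 1.55 and 1.01 and that of the IRE1 and ATF6 list is -0.21; with PHA the medians of the lists lie between -0.21 and 0.03.

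Markers of several cell types were present in the spheres, and some of them moved with the treatments. In these bulk samples, fewer cells of a type and less RNA per cell cannot be told apart. The group means of the epithelial markers Epcam and Krt8 ranged from 9.00 to 9.91 and from 9.13 to 10.36, those of the fibroblast marker Col1a2 from 11.46 to 14.42 and those of the leukocyte marker Lyz2 from 13.36 to 14.53. Other markers of the same lists were dimmer, such as Krt19 (5.26 to 6.78), Thy1 (4.42 to 6.71) and Aif1 (4.66 to 6.17). Lyz2 was not called with ICG (0.02), PHA (-0.01) or PHA+ICG (-0.20). With ICG 8 of 9 fibroblast markers, 6 of 10 leukocyte markers, 4 of 5 mast cell and basophil markers and 4 of 7 epithelial markers fell, and with PHA 6, 2, 4 and 2 of them. Of these markers 0 rose with either compound. Over all genes 26.9% were called with ICG in either direction and 11.9% of all genes were called higher. With PHA 7.07% of all genes were called lower. Endothelial markers gave 0 calls of 6 with ICG and 1 lower with PHA, and of 3 adipocyte markers 1 rose and 1 fell with ICG and none was called with PHA. Some of these calls were of dim genes, below the lower quartile of gene means (4.98). The adipocyte marker that rose, Adipoq, had group means of 3.46 to 4.02. The endothelial marker called lower, Tek, was at 3.49 to 4.08, and the mast cell and basophil marker Ms4a2 at 3.60 to 4.58. The mean of the fibroblast list ranged from 10.44 to 11.09 over the DMSO arrays of the first set, from 9.90 to 10.02 with PHA and from 9.19 to 9.82 with ICG, and that of the leukocyte list from 9.90 to 10.36, 9.73 to 9.87 and 8.99 to 9.37. With PHA+ICG 1 fibroblast, 1 mast cell and basophil and 1 adipocyte marker fell, where 2.02% of all genes were called in either direction. Between the DMSO groups, 7 of 10 leukocyte markers were lower and 6 of 9 fibroblast markers higher in the second set. The fibroblast marker Thy1 was called lower (-1.61, limma adjusted p = 0.0103). In this comparison, in which Atf3 was lower and Niban1 higher, 11.8% of all genes were called higher and 11.8% lower. The 3′ minus 5′ difference of the Actb control probe sets, a measure of RNA integrity, was 0.45 ± 0.12 (SD, n = 3) in DMSO, 0.54 ± 0.06 in PHA and 0.63 ± 0.07 in ICG of the first set, and 0.59 ± 0.11 and 0.59 ± 0.16 in DMSO and PHA+ICG of the second. That of Gapdh was 0.12 ± 0.05 in DMSO, 0.10 ± 0.04 in PHA and 0.19 ± 0.05 in ICG, and in the second set 0.18 ± 0.08 in DMSO and 0.40 ± 0.31 in PHA+ICG, where it ranged from 0.079 to 0.69. The part of these markers and of RNA integrity in the results of the members was not tested.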

How the data were processed

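The deposited log2 values of 45101 probe sets on 15 mouse expression arrays were used as the authors gave them. Per the submitters' processing notes MAS5 and RMA were used, with no version or role stated, and whether both sets were normalized together is not given in the sources used here. Array medians were 5.74 to 5.93. Probe sets with 1 symbol (34945) were kept; those with several symbols (932) or none (9160) and 64 controls were left out. A gene was read from its probe set with the highest mean, which gave 18193 genes. Each set was fitted by itself with limma 3.58.1 in R 4.3.3, since the sets spread unequally; differences across sets used all 15 arrays with 1 precision weight per set (2.03 and 0.345). P-values were adjusted by Benjamini-Hochberg over all genes, with calls at 0.05. Figures were drawn with matplotlib 3.10.9 and tables made with pandas 2.3.3 and numpy 2.4.6 in Python 3.11.15. The fit was tested on simulated data with errors drawn independently for each array. The simulation therefore does not cover arrays of like number that deviate together, as in the second set.

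The members and lists were chosen with earlier results of these data known. Named were all members, the up to 4 called genes of largest change in a list, relatives beside their member, and the 10 genes most correlated with the mean of the members. In the second set, DMSO and PHA+ICG arrays of like number deviated together (correlations 0.61, 0.36 and 0.28), while those of the first set did not. Unlike numbers 2 and 3 of the second set also correlated, at 0.35 and 0.24. The labels name no pairs. The replicate block was nevertheless fitted within both sets. Block results for the first set and across sets therefore also block first-set arrays that share no more than the number. The alternatives were 1 fit to all arrays, weighted or not, the replicate block, quantile normalization, median centring, the mean of a gene's probe sets, each probe set by itself, a filter on dim genes and each array left out. The number of arrays limits the precision. Promoter windows and their coordinates are from RefSeq.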

Additional observations from a re-analysis of the deposited data

How the results depend on the processing

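Of 1580 member values under an alternative, 1437 kept their direction and their side of the threshold, 55 lost a call, 45 gained one and 43 changed sign. The ICG calls of 9 members held under every alternative except in single probe sets of Atf4 and Ddit3; the call of Atf3 was also lost with the replicate block (limma adjusted p = 0.0503), although arrays of like number in that set correlated at only -0.26 to 0.12 and share no more than the number. The cause of the changes was not tested. The second set, with 3 arrays a group and a larger spread, limits every value that uses PHA+ICG.

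In the unweighted fit to all arrays, 1 member was called with PHA (main 2), 6 with PHA+ICG (main 2), 1 for combination minus ICG (main 0) and 0 against the sum (main 1). Set weights gave 6 with PHA+ICG. The replicate block gave 6 with PHA+ICG and 1 for combination minus ICG, as did quantile normalization and median centring for the latter (1 each). Leaving out number 1 of both second-set groups, chosen after seeing the data, gave 5 with PHA+ICG and 2 for combination minus ICG. With each array left out in turn, the members called were 2 to 3 for PHA, 9 to 10 for ICG, 0 to 3 for PHA+ICG, 0 to 2 for combination minus ICG, 3 to 6 for combination minus PHA, 0 to 1 against the sum and 2 to 7 between the DMSO groups.

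The number of genes called changed by over 1.5 times as follows. In the unweighted fit it was 182 for PHA (main 1858), 1255 for ICG (4896), 2413 for PHA+ICG (368), 1463 for ICG against PHA (4939), 160 for combination minus ICG (70), 860 for combination minus PHA (499) and 78 against the sum (131). With the block it was 1202, 1442, 197, 958 and 284 for PHA, PHA+ICG, combination minus ICG, minus PHA and against the sum. Set weights gave 641 for PHA+ICG, quantile normalization 769 for combination minus PHA, and the filter on dim genes 42 for combination minus ICG. Without number 1 of the second set it was 886, 242 and 277 for PHA+ICG, combination minus ICG and against the sum. Leaving out single arrays gave as few as 1005 for PHA, 56 for PHA+ICG, 1 for combination minus ICG, 149 for combination minus PHA, 35 against the sum and 2442 between the DMSO groups. Quantile normalization split the PHA calls into 826 higher and 1094 lower (main 572 and 1286) and the PHA+ICG calls into 131 and 248 (87 and 281); median centring split the DMSO calls into 1689 and 2716 (2143 and 2140).

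The results that were called and changed sign were those of Ddit3 with ICG and between the DMSO groups, each in another probe set, and the latter also in the mean of its probe sets; all other sign changes were of uncalled results. Where leaving out 1 array turned the sign, the values ranged, with PHA, from -0.0075 to 0.12 for Trib3, -0.072 to 0.0092 for Eif4ebp1 and -0.13 to 0.075 for Sesn2; for combination minus ICG, from -0.13 to 0.74 for Trib3, -0.056 to 0.43 for Ppp1r15a, -0.73 to 0.31 for Chac1 and -0.14 to 0.15 for Sesn2; against the sum, from -0.10 to 0.19 for Sesn2, -0.18 to 0.69 for Trib3, -0.13 to 0.90 for Chac1 and -0.077 to 0.62 for Ddit3; and between the DMSO groups, from -0.48 to 0.0082 for Ppp1r15a. With PHA, Sesn2 was at 0.016 after quantile normalization, and the means of probe sets gave Atf4 0.022, Ddit3 -0.018 and Eif4ebp1 0.011. Other probe sets gave Eif4ebp1 0.090, Trib3 -0.0048, Atf4 0.25 and Ddit3 -0.17 with PHA, and Ddit3 -0.057 with ICG. Stc2 with PHA+ICG was at -0.029 without number 1 and at -0.37 in another probe set. Without number 1, Ddit3, Trib3 and Sesn2 were at -0.033, -0.13 and -0.16 for combination minus ICG, Ddit3, Trib3, Chac1 and Sesn2 at -0.17, -0.19, -0.18 and -0.12 against the sum, and Ppp1r15a at 0.0082 between the DMSO groups. Other probe sets gave Eif4ebp1 0.030 and Atf4 0.032 for combination minus ICG, Stc2 -0.0011 and -0.039 and Atf4 0.078 against the sum, and Atf4 -0.052 between the DMSO groups. There Sesn2 was at -0.0093 after median centring and Ddit3 at 0.39 as the mean of probe sets; the other probe set of Ddit3 was called higher (1.44).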
